A study of Mus musculus with 6 samples.

Results

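Mobp, the gene for myelin-associated oligodendrocyte basic protein, was examined through every transcript that the deposited table assigns to it, 174 of 36659 transcripts, as 1 of 6357 genes named alone in that table. Each transcript is a group of PacBio reads of 1 cell that carried the same unique molecular identifier (UMI), a tag added to a cDNA molecule before amplification. It is therefore taken here as 1 molecule and not as 1 read. Some transcripts of a cell had the same or nearly the same ends and UMIs that differed by 1 substitution or a shift of 1 base. Whether these are 1 molecule counted more than once was not tested, and counts and intervals treat them as separate. The reads came from STRT/C1 cDNA, which is made from the poly-A tail of mRNA and carries its tag at the 5′ end, of 6 single cells from the brain of CD-1 mice, with no treatment named in the labels. The labels give the stage of all of them as embryo, and neither the labels nor the methods say which animals they came from. The study calls the types VLMC (vascular and leptomeningeal cells), Oligo1 (immature oligodendrocytes) and Oligo5 (mature oligodendrocytes), with 2 cells each. With so few cells in a type, values are given per cell and no test was run between types.

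MOBP is a small, strongly basic protein of the compact myelin of the central nervous system. It is made by oligodendrocytes, the cells that wrap axons in myelin, and it lies at the cytoplasmic faces of the myelin membranes, where the myelin basic protein is also found. The gene is known for several proteins that begin alike and end differently, because alternative last exons follow a shared coding start. An alternative end can also leave the protein as it is and change only the 3′ untranslated region (UTR), the stretch after the stop codon.

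The deposited exon numbers rest on the RefSeq isoform with the most exons and run to 4. The positions of the aligned blocks show more than these numbers do. Here the exons are numbered from GENCODE M21 on GRCm38 (mm10), where Mobp (ENSMUSG00000032517.16) lies on the plus strand at chr9:120149707-120181484 with 7 annotated transcripts. Exon 1 (chr9:120149707-120149797, 91 bases) and exon 2 (chr9:120154687-120154765, 79 bases) are noncoding. Exon 3 (chr9:120167801-120168010, 210 bases) holds the start codon at 120167805 and 206 coding bases. Exon 3b (chr9:120168223-120169378, 1156 bases) is a last exon that begins shortly after exon 3. Exon 4 (chr9:120173151-120176091, 2941 bases) is a last exon as well, but in another annotated form it stops after 225 bases, at 120173375, and is joined to exon 5 (chr9:120179327-120179405, 79 bases) and exon 6 (chr9:120179525-120181484, 1960 bases). An annotated alternative first exon, 1b (chr9:120153045-120153127), was in 0 of the 174 transcripts, which allows a share of up to 1.72%.

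The protein ends are set by what follows exon 3. The letters below show the last 18 coding bases of exon 3 in lower case and what comes after them in capitals, up to the stop codon for exon 4 and for the unspliced form, and for as many bases in exon 3b. They were taken from the annotated transcripts.
exon 3 to exon 4: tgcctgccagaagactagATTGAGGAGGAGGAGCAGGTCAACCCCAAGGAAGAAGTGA
exon 3 to exon 3b: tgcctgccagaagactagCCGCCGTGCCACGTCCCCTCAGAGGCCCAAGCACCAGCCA
exon 3 unspliced: tgcctgccagaagactagGTGA
Translated from the start codon, exon 4 gives a protein of 81 residues (MOBP81), exon 3b gives 170 residues (MOBP170), and reading on past exon 3 without splicing gives 69 residues (MOBP69). All 3 share their first 68 residues, of which 13 (19.1%) are lysine or arginine. MOBP81 adds 13 residues with 8 lysines or arginines, and MOBP170 adds 102 with 26 lysines or arginines and 28 prolines. The first of the 13 is also the last residue of MOBP69. The stop codon of MOBP81 ends at 120173190, in exon 4 before the place where the joined form leaves it, so exons 5 and 6 add only untranslated sequence. That stop lies 185 bases before the junction of exons 4 and 5, and GENCODE marks this transcript as a target of nonsense-mediated decay.

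Mobp was found in the 4 oligodendrocytes and in neither VLMC. Oligo1-1 had 122 transcripts, Oligo1-2 had 24, Oligo5-1 had 15 and Oligo5-2 had 13. Per 10000 transcripts of the cell this was 106 in Oligo1-1 (95% Poisson interval 88.2 to 127), 39.7 for Oligo1-2 (25.4 to 59.1), 25.4 for Oligo5-1 (14.2 to 42.0) and 20.9 for Oligo5-2 (11.1 to 35.8). Oligo1-1 stood above the others, while the intervals of the other three cells overlapped. With 0 transcripts, VLMC-1 allows a share of up to 0.128% and VLMC-2 up to 0.0640%. All intervals and limits of this kind cover counting error alone, and fewer molecules sampled and fewer molecules in the cell cannot be told apart.

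**Figure D1:**
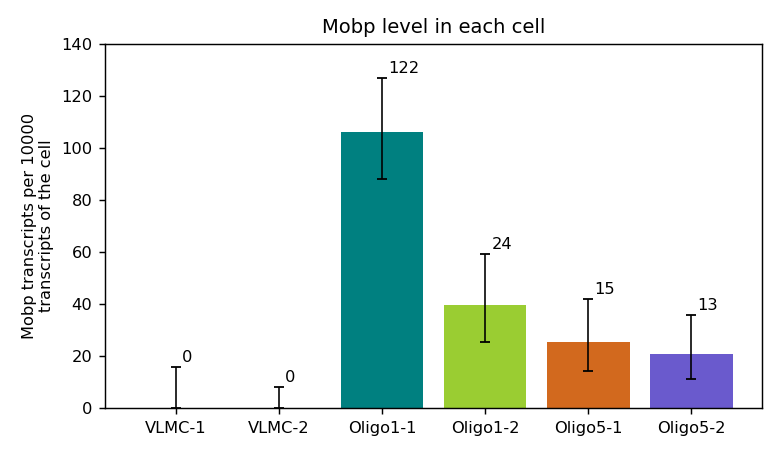
Mobp transcripts per 10000 transcripts of each cell (vertical axis), with 1 bar per cell, 95% Poisson intervals as error bars and the number of Mobp transcripts above each bar. Oligo1-1 is at 106, the other oligodendrocytes lie between 20.9 and 39.7, and both VLMCs are at 0.

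The cells held 2338 to 11483 transcripts each, from 7610 to 20509 reads, and the 6 barcodes are distinct. The labels name the VLMCs oligodendrocyte progenitor cells, but 6 and 7 of 7 VLMC markers were seen in them and 1 of 5 progenitor markers, Pdgfra, and none of 8 oligodendrocyte markers. The oligodendrocyte markers made up 2.09% to 3.46% of the transcripts in the 4 oligodendrocytes. Oligo5-2 stood apart in holding all 4 neuron markers with 34 transcripts (0.547%), which were at 0 in the other five cells, and its part in the Mobp values was not tested. Oligo1-1 was also the cell with the most transcripts, and it gave 70.1% of the Mobp molecules, so pooled values mainly describe this cell.

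Of 8 other myelin genes, 1 had its levels in the same order over the oligodendrocytes as Mobp. For Mobp the order of Oligo1-2, Oligo5-1 and Oligo5-2 rests on 24, 15 and 13 transcripts with overlapping intervals, so a match or mismatch there says little. Mbp (myelin basic protein) had 144 transcripts per 10000 in Oligo1-1, 94.3 for Oligo1-2, 32.2 for Oligo5-1 and 49.9 for Oligo5-2. Cnp, which codes for a phosphodiesterase of noncompact myelin, was the gene in that order, with 89.7, 77.8, 61.1 and 29.0 transcripts per 10000. Mal, a proteolipid gene of mature myelin, had 1 transcript from Oligo1-1, 0 from Oligo1-2, 52 from Oligo5-1 and 23 from Oligo5-2. The remaining 5 genes had 46 transcripts in all for Mag, 108 for Mog, 100 for Cldn11, 45 for Ermn and 11 for Opalin. All 8 were at 0 in both VLMCs.

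The genes whose spread over the 6 cells was most like that of Mobp were Msmo1, Cyp51 and Grb14, out of 62 others with 50 or more transcripts. Likeness was measured as the Euclidean distance between the shares that each cell takes of the summed level, which was 0.0973 for Msmo1, 0.134 for Cyp51 and 0.147 for Grb14. Mbp came next with the same rounded distance as Grb14, 0.147. Its order over the 4 oligodendrocytes differed from that of Mobp only in the Oligo5 pair, where the intervals of Mobp overlap. Msmo1, an enzyme of sterol synthesis, had 39, 11, 3 and 4 transcripts in Oligo1-1, Oligo1-2, Oligo5-1 and Oligo5-2. Cyp51, the lanosterol demethylase of the same pathway, had 38, 9, 1 and 3. Grb14, an adaptor of receptor tyrosine kinases, had 45, 4, 4 and 4. All were at 0 in both VLMCs. Oligo1-1 took 55.2% of the summed level of Mobp, 53.3% of that of Msmo1, 60.7% of that of Cyp51 and 66.4% of that of Grb14.

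The transcripts fell into 13 combinations of exons. The most common joined exons 1, 2, 3, 4, 5 and 6 and had 75 transcripts, 57 from Oligo1-1, 4 from Oligo1-2, 2 from Oligo5-1 and 12 from Oligo5-2. It was the form of 75 of 115 transcripts that covered the first exon, or 65.2% (95% Wilson interval 56.1 to 73.3). In the deposited numbering it reads as exons 1 to 4, the same as the 11 transcripts that ended inside exon 4. A block that covered only part of exon 4 and nothing else came next with 51 transcripts, 25 from Oligo1-1, 14 from Oligo1-2, 12 from Oligo5-1 and 0 from Oligo5-2. The form with exons 1, 2, 3 and 3b had 19 transcripts, 17 of them in Oligo1-1, 1 in Oligo5-1 and 1 in Oligo5-2.

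**Figure D2:**
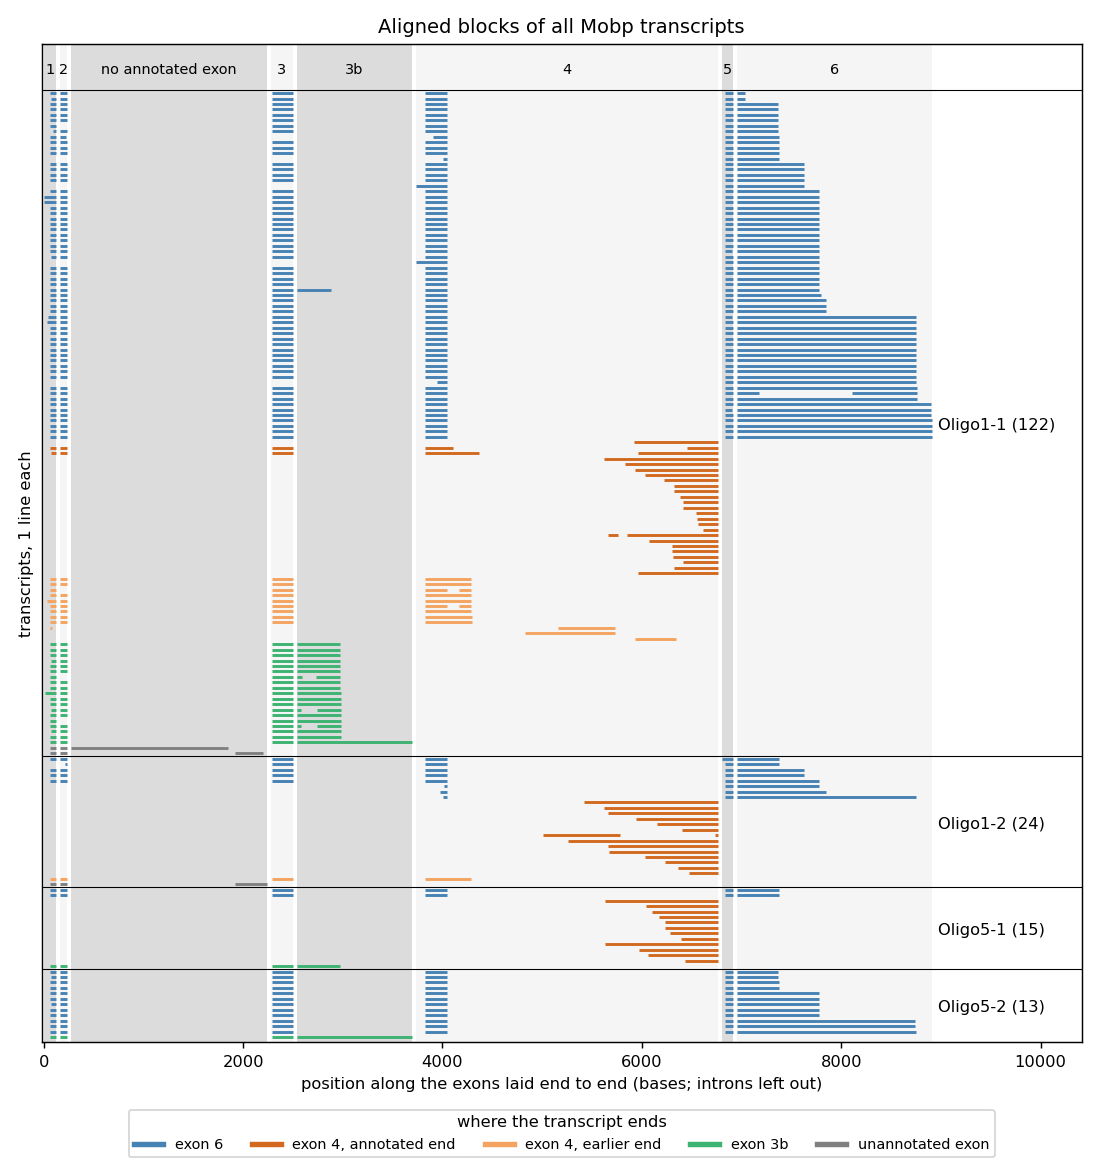
Aligned blocks of all 174 Mobp transcripts, 1 line each, along the exons laid end to end with introns left out (horizontal axis, bases), grouped by cell and coloured by where the transcript ends. The 2 wide patterns are full chains through exons 1 to 6 (blue) and blocks inside exon 4 that reach its annotated end but begin late (orange). The latter are missing in Oligo5-2.

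Of the 10 other forms, 6 were seen in 1 transcript each and 3 in 2 or more cells. A joined chain of exons 4, 5 and 6 that began after exon 3 had 7 transcripts, 4 from Oligo1-1 and 3 from Oligo1-2. Transcripts on any annotated first exon numbered 97 in Oligo1-1 and 9 in Oligo1-2, against 93 and 6 on exon 1. Some transcripts without exon 1 thus overlapped another annotated first exon, and these chains may be among them. Exon 2 was skipped in 5 of the 115 transcripts with the first exon, all in Oligo1-1 and each read once. In 1 of these 5 a gap of 24720 bases ran from inside exon 1 to inside exon 4, with CA at both its edges and a direct repeat of 7 bases. Exon 3 alone was missing in 1 transcript of Oligo1-1, read 3 times. Its gap of 18492 bases ran from inside exon 2 to inside exon 4, with GG and AC at its edges. In another transcript of Oligo1-1, read 3 times, exon 3b ended after 342 bases at a GT, was joined to the AG before exon 4 and went on through exons 5 and 6 to chr9:120180351. It carries the stop codon of MOBP170 in exon 3b, so its exon 4 coding part would lie after that stop.

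A block outside the annotated exons followed exon 2 in 3 transcripts, 2 of Oligo1-1 and 1 of Oligo1-2. The block of 1 transcript in each of these cells began at the same base, 120157377, after a junction from the end of exon 2, and ran to 120157656 (280 bases) or 120157698 (322 bases). The third block ran from 120155738 to 120157303 (1566 bases) and did not overlap the others. The 3 transcripts are pooled below under the name unannotated exon, which is thus not a single exon. All 3 lacked exon 3 and with it the start codon, and each was read once and in the short run only. The sequence of these blocks was not examined here.

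Where the transcripts ended differed between cells and with the requirement for the first exon. Over all 174 transcripts, 86 ended in exon 6 (49.4%, 42.1 to 56.8), 51 at the annotated end of exon 4 (29.3%, 23.1 to 36.5), 13 earlier in exon 4 (7.47%, 4.42 to 12.4), 21 in exon 3b (12.1%, 8.03 to 17.7) and 3 in the unannotated exon (1.72%, 0.588 to 4.95). Exon 6 took 64 of 122 transcripts in Oligo1-1 (52.5%), 8 of 24 in Oligo1-2 (33.3%), 2 of 15 in Oligo5-1 (13.3%) and 12 of 13 in Oligo5-2 (92.3%). The annotated end of exon 4 took 25 from Oligo1-1 (20.5%), 14 from Oligo1-2 (58.3%), 12 from Oligo5-1 (80%) and 0 from Oligo5-2. The 2 cells of a type were thus not alike: the mature cells Oligo5-1 and Oligo5-2 had opposite patterns, and their Wilson intervals for exon 6, 3.74 to 37.9 and 66.7 to 98.6, did not overlap.

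The cells that ended more often in exon 4 were those whose transcripts reached the first exon less often. The first exon was covered by 93 of 122 Mobp transcripts in Oligo1-1 (76.2%), 6 of 24 in Oligo1-2 (25%), 3 of 15 in Oligo5-1 (20%) and 13 of 13 in Oligo5-2 (100%). Over all other genes matched to the annotation, an annotated first exon was covered by 53.7% of the transcripts of Oligo1-1, 19.1% of those of Oligo1-2, 26.6% for Oligo5-1 and 55.3% for Oligo5-2. Counted in that way, with any annotated first exon, Mobp had 79.5%, 37.5%, 20% and 100%. The same 2 cells were low in Mobp and in the other genes, and the part of this difference in the shares by last exon was not tested.

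Among the 115 transcripts with the first exon, 78 ended in exon 6 (67.8%, 58.8 to 75.7), 21 in exon 3b (18.3%, 12.3 to 26.3), 11 earlier in exon 4 (9.57%, 5.43 to 16.3), 3 in the unannotated exon and 2 at the annotated end of exon 4 (1.74%, 0.478 to 6.12). Exon 6 then took 60 of 93 in Oligo1-1 (64.5%), 4 of 6 in Oligo1-2, 2 of 3 in Oligo5-1 and 12 of 13 in Oligo5-2, with Wilson intervals that overlapped in every pair of cells. The 2 that reached the annotated end of exon 4, both of Oligo1-1 and read once, had a gap of 2349 or 1595 bases inside exon 4 with no GT-AG at its borders. No transcript with the first exon held exon 4 in full.

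**Figure D3:**
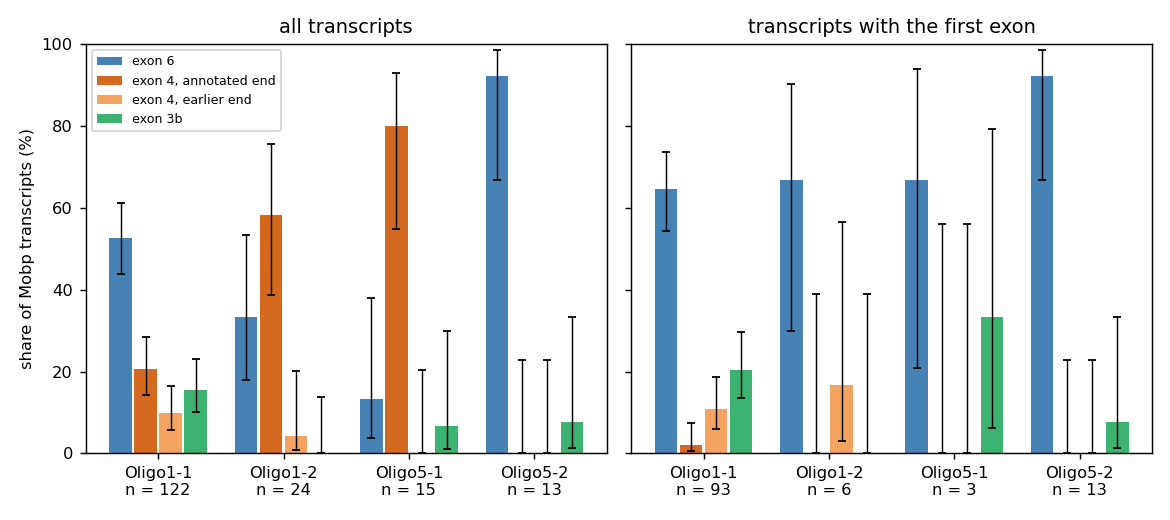
Share of Mobp transcripts (percent, vertical axis) by where they end, for each oligodendrocyte, over all transcripts (left) and over those that cover the first exon (right), with 95% Wilson intervals as error bars and n under each cell. The orange bars of exon 4 reach 80% in Oligo5-1 on the left and at most 2.15% on the right.

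The other 59 transcripts began after exon 1 and are called late starters here. Some of them overlapped another annotated first exon, and how many are cut molecules was not tested. Of the 59, 49 ran from inside exon 4 to its annotated end, 2 from inside exon 4 to an earlier end, and 8 ended in exon 6. All 49 started at base 1192 of exon 4 or later, that is after the place where the joined form leaves the exon, and their starts lay 146 to 1750 bases before the annotated end with a median of 587. They began at 45 different bases in all, at 20 in the 23 of Oligo1-1, at 14 in the 14 of Oligo1-2 and at 12 in the 12 of Oligo5-1. No transcript started in this stretch and ended in exon 6, which follows from the place where the joined form leaves exon 4. All 8 late starters that ended in exon 6 began upstream of the junction with exon 5. The late starters at the annotated end of exon 4 covered no start or stop codon of MOBP81, so they do not tell which protein their molecules would encode.

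The aligned length sets a limit here. A transcript of exons 1, 2, 3 and the whole of exon 4 would have 3286 bases, and the longest Mobp transcript had 2608. Over all genes, 517 of 36659 transcripts (1.41%) were at least 3286 bases long. The chain through exon 6 has 2609 bases when it is complete, and the 4 transcripts that ended at its annotated end covered nearly all of it.

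At the end of the short form of exon 4, 95 transcripts could show a choice: they either were joined to exon 5 or read on past 120173375. Of these, 85 were joined (89.5%, 81.7 to 94.2) and 10 read on. The 49 late starters that reached the annotated end of exon 4 did not cover this place and are not among the 95. A full form that reads on from exon 1 to that end would be longer than any Mobp transcript here. The share thus holds for the molecules read across this place, not for all molecules of the gene. Joined were 64 of 73 in Oligo1-1, 7 of 8 for Oligo1-2, 2 of 2 for Oligo5-1 and 12 of 12 for Oligo5-2. The cells did not differ beyond their intervals. A further 2 transcripts of Oligo1-1 left exon 4 at the same base and returned to it after 119 bases, at a GT and an AG, and 1 of Oligo1-2 left it there and resumed just before exon 5.

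Ends within 5 bases of the next were taken as 1 site, which gave 20 end sites, 17 of them in annotated exons. Of the 20 sites, 9 were seen in 2 or more cells, 13 had a UMI read 2 or more times and 5 had 1 transcript. The letters below are the last 30 bases of the DNA strand of the gene before the sites with 7 or more transcripts, shown because they carry or lack the signal for cleavage and polyadenylation, AATAAA or ATTAAA, which is in capitals.
exon 3b, chr9:120168629-120168658: tccactccctgcATTAAAccccctctgttt
exon 4, chr9:120173585-120173614: ctggtcagcaaacatgactcttgatacttt
exon 4, chr9:120176061-120176090: taacaagaactcAATAAAtacttgctgact
exon 6, chr9:120179915-120179944: caAATAAAgtcctaacagcggttaaaagcc
exon 6, chr9:120180172-120180201: ttgtcctgtcagaAATAAAagtataagaaa
exon 6, chr9:120180321-120180350: tgtttacaaggtcgcataaattttaaacac
exon 6, chr9:120181292-120181321: ttgttgtagaAATAAAacctggggatggat
A signal was searched in whole, on the strand of the gene, 10 to 35 bases before each end.

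Exon 6 had 10 sites, and their order along the exon was that of the length of the 3′ UTR of MOBP81. The site at 120180350 was the most used, with 26 transcripts, 19 in Oligo1-1, 2 in Oligo1-2 and 5 in Oligo5-2, and it has neither AATAAA nor ATTAAA in its window. It leaves a 3′ UTR of 1090 bases. The site at 120179944 had 19 transcripts and was seen in all 4 oligodendrocytes, 11, 2, 2 and 4, with a 3′ UTR of 684 bases. The sites at 120180201 (7 transcripts, 5 in Oligo1-1 and 2 in Oligo1-2) and 120181321 (17 transcripts, 13 in Oligo1-1, 1 in Oligo1-2 and 3 in Oligo5-2) give 941 and 2061 bases. The last 2 sites, at 120181472 and 120181483, are near the annotated end and had 3 and 4 transcripts, all of Oligo1-1, with no signal in the window.

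Exon 4 had 5 sites. The 13 transcripts that ended before its annotated end became 3 of 108 (2.78%) when UMIs 1 substitution apart were merged, and 1 of 52 (1.92%) was left without Oligo1-1. The merging disregarded positions, so it also joined molecules with different ends. The site at 120176090, 1 base before the annotated end, held 51 transcripts and has AATAAA before it. The site at 120173614 held 8 transcripts, 7 of Oligo1-1 and 1 of Oligo1-2, all with the first exon, and no signal was found there even within 50 bases. Its 3′ UTR has 424 bases when exon 4 is read through, and does not include the junction with exon 5. In 2 of the 8, both of Oligo1-1, a gap of 119 bases at chr9:120173376-120173494 leaves a shorter 3′ UTR with a junction in it. The sites at 120175061 and 120175668, with 2 transcripts and 1, were followed by 13 and 12 A among the next 20 genomic bases.

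Exon 3b had 2 sites. The site at 120168658 held 19 transcripts, 18 of Oligo1-1 and 1 of Oligo5-1, with ATTAAA before it, and lies 129 bases after the stop codon of MOBP170. The site at 120169376, 2 bases before the annotated end, held 1 transcript of Oligo1-1 and 1 of Oligo5-2, both read in the long run, and leaves 847 bases after the stop. In Oligo1-2, 0 of 24 transcripts ended in exon 3b, which allows a share of up to 12.5%.

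**Figure D4:**
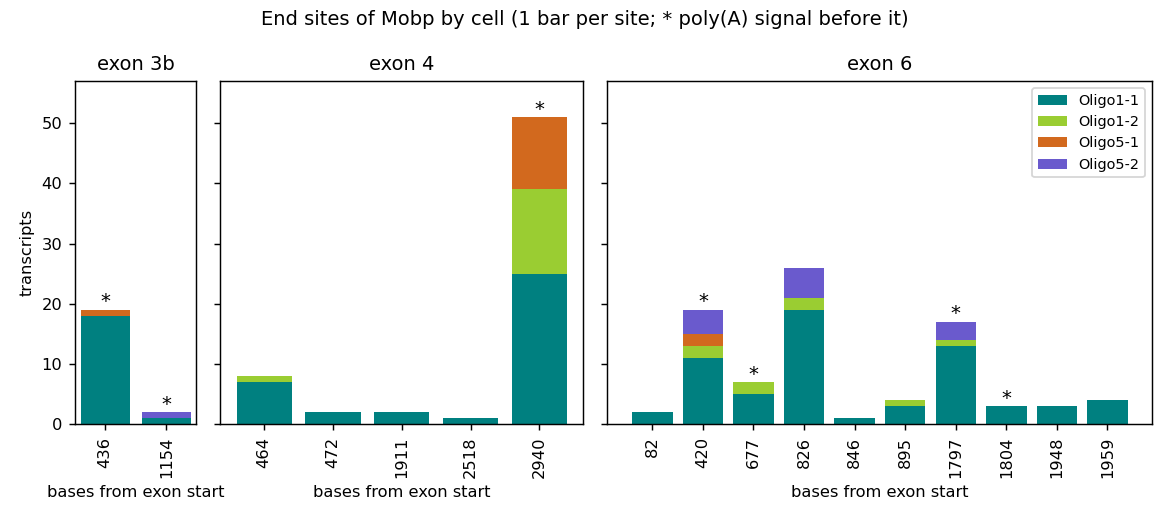
Number of Mobp transcripts (vertical axis) at each end site in exons 3b, 4 and 6, with 1 bar per site placed in order along the gene, marked by its distance from the start of the exon in bases and split by cell. An asterisk marks AATAAA or ATTAAA 10 to 35 bases before the end. The bar of 26 transcripts in exon 6 has none, and the 3 transcripts that end in the unannotated exon are left out.

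Over transcripts, a signal stood in the window before 113 of 169 Mobp ends for which the annotated sequence could be read (66.9%, 59.5 to 73.5). For the ends of all other genes it was 20931 of 32562 (64.3%, 63.8 to 64.8). By site, 7 of the 17 Mobp end sites in annotated exons had a signal. Ends at 1 site share their sequence, so the intervals over transcripts, here and below, do not measure a spread between sites. An A-rich stretch, 12 or more A in the next 20 genomic bases, followed 4 of 111 Mobp ends with sequence beyond them (3.60%, 1.41 to 8.90), against 6862 of 19505 for the other genes (35.2%, 34.5 to 35.9). Ends at the annotated end of an exon have no sequence beyond them here and are left out of the last values. Oligo-dT can prime at such stretches, and its part in the ends was not tested.

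The 5′ ends were far less varied once the first exon was reached. The transcripts had 46 start sites by the same rule of 5 bases, of which 38 lay in exon 4 and 4 in exon 1, and 32 had 1 transcript. A single site in exon 1 held 108 transcripts, 86 from Oligo1-1, 6 from Oligo1-2, 3 from Oligo5-1 and 13 from Oligo5-2, which is 93.9% (88.0 to 97) of those with the first exon. Of these, 77 began exactly at 120149742. This is the RefSeq start of the gene and lies 35 bases inside exon 1 in its longest GENCODE form. The 30 bases before it, from the RefSeq promoter table on GRCm38, are shown for the position of TATATA in capitals.
chr9:120149712-120149741: cTATATAttcctcgtgtactgaggtcgccc
TATATA, searched on the strand of the gene, stood 29 to 24 bases before this start. Of 32851 promoters in the table, 270 (0.822%) held it within 35 to 20 bases before their start. All 13 Mobp transcripts of Oligo5-2 used this start, whichever of their 4 end sites they had.

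Of the 174 transcripts, 111 covered the start codon, and each of these reached a stop codon in frame. MOBP81 was encoded by 89 (80.2%, 71.8 to 86.5) and MOBP170 by 19 (17.1%, 11.2 to 25.2). These shares hold for the molecules read across the start codon, not for all molecules of the gene. The 49 late starters at the annotated end of exon 4 are not among the 111. A molecule from exon 1 to that end without a gap would be longer than any Mobp transcript here. In Oligo1-1, 69 of 89 encoded MOBP81 and 17 MOBP170. In Oligo1-2 all 6 encoded MOBP81, in Oligo5-1 2 encoded MOBP81 and 1 MOBP170, and in Oligo5-2 12 encoded MOBP81 and 1 MOBP170. The share of MOBP170 was 19.1% (12.3 to 28.5) in Oligo1-1 and 7.69% (1.37 to 33.3) in Oligo5-2, which overlap. MOBP69 was encoded by 0 of 111, which allows a share of up to 2.70%. Of the 89 transcripts for MOBP81, 77 ended in exon 6, 10 earlier in exon 4 and 2 at its annotated end, so a single protein form came with 3′ UTRs of very different length.

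In the remaining 3, all of Oligo1-1 and read once, a gap inside exon 3b changed the protein. The gap of 160 bases at chr9:120168260-120168419, in 2 transcripts, shifts the frame and would give 128 residues, of which the first 82 are those of MOBP170. That of 141 bases at chr9:120168275-120168415 keeps the frame and ends at the stop codon of MOBP170, so it would give 123 residues, which is MOBP170 without 47 internal residues. Neither gap had both GT at its start and AG at its end, and the longer gap is flanked by a direct repeat of 9 bases.

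Of 520 junctions between blocks, 491 (94.4%) joined annotated exon ends exactly, 11 (2.12%) were displaced by 1 base and 18 (3.46%) were elsewhere. After exon 3, 89 transcripts were joined to exon 4 and 22 to exon 3b (19.8% of 111, 13.5 to 28.2). The choice after exon 3 was compared with exon 2 upstream. Among 112 transcripts with the first exon and an annotated last exon, exon 3b was the last exon in 19 of 107 with exon 2 and in 2 of 5 without it (p = 0.235 by Fisher's exact test, both sides counted, and 0.352 after adjustment over the 3 pairs). Exons 2 and 3 were both present in 106, exon 3 alone in 4, exon 2 alone in 1 and neither in 1 (p = 0.0877 by the same exact test, 0.263 adjusted). The molecule with exon 2 alone and that with neither are those with a gap from inside an earlier exon to inside exon 4. Exons 3 and 4 were both present in 89 of 91 that ended in exon 4 or later and exon 4 alone in 2. All 91 held exon 4, so the same exact test could only give p = 1 and compared nothing. This pair still counts among the 3 of the adjustment. For the other pairs few transcripts lacked exon 2 or exon 3, so the tests had little to compare. They treat molecules as independent and speak of these molecules, not of cells.

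The PacBio runs held different ends. The short run gave reads for 101 transcripts alone, the long run, which used a step that enriched long molecules, for 50 alone, and 23 were read in both. Exon 6 took 32 of 101 transcripts found in the short run alone (31.7%, 23.4 to 41.3) and 37 of 50 found in the long run alone (74.0%, 60.4 to 84.1). The annotated end of exon 4 took 41 (40.6%) and 6 (12.0%), and exon 3b took 17 (16.8%) and 3 (6%). Within exon 6, the sites beyond its first 1000 bases had 27 transcripts, 25 of them with a read in the long run, and the nearer sites had 59, of which 29 had. The shares by last exon thus moved with the run, and the cells differed in it: 1 of 15 Mobp transcripts of Oligo5-1 was read in the long run alone, against 35 of 122 in Oligo1-1, 8 of 24 in Oligo1-2 and 6 of 13 in Oligo5-2.

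**Figure D5:**
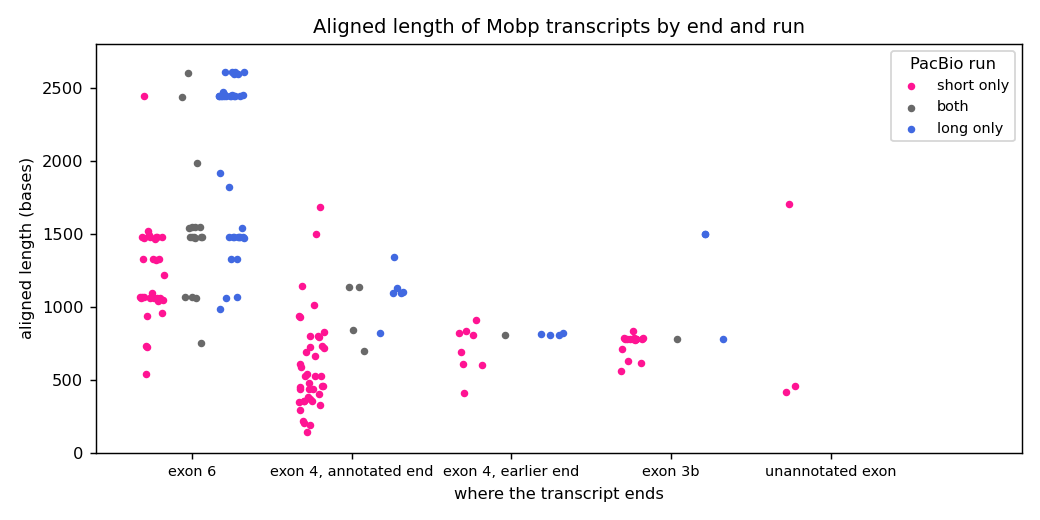
Aligned length of each Mobp transcript (bases, vertical axis) by where it ends and by the run in which it was read, 1 point per transcript, with a random sideways shift to separate points. Transcripts at the annotated end of exon 4 have a median of 610 bases and are mostly from the short run, and those longer than 2400 bases all end in exon 6.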

How the data were processed

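The data are PacBio reads of STRT/C1 cDNA from 6 single cells. The authors deposited, for each transcript, its read counts without normalization and the positions of its aligned blocks on mm10. Before that they had selected reads that showed the barcode on either side and a poly-A tail, placed them with GMAP (the labels' processing notes name GSNAP 2014-10-22), retained unique alignments, joined blocks less than 40 bases apart and merged reads with the same UMI. Single-read UMIs were kept, 107 of the 174 of Mobp.

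Block starts were counted from 1. Exons, codons and sequences came from GENCODE M21, and promoters from RefSeq (GRCm38). Of 6357 single gene names, 6131 were matched by symbol at 1 locus, with 35029 of 36659 transcripts, for the values over all other genes. Cells have 2338 to 11483 transcripts, which allow a share of up to 0.128% to 0.0261% at a count of 0 (3 counts). Shares have Wilson intervals at 95%. Cells were grouped by their barcodes in the labels. The p-values measure the spread between molecules only. Exon pairs were tested with Fisher's exact test and Benjamini-Hochberg adjustment at 0.05, with 0.5 added for odds ratios.

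The gene, the lists and the tests were chosen with earlier results of these data known. Genes named are Mobp, 8 myelin genes and the 3 most like Mobp. A further listed gene is not reported here and was left out of all list counts. Alternatives changed the UMIs, tolerances, runs, cells, windows and definitions. Python 3.11.15, pandas 2.3.3, numpy 2.4.6 and scipy 1.17.1 were used, and the functions were tested on simulated data.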

Additional observations from a re-analysis of the deposited data

How the results depend on the processing

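No paired analysis was possible because no test compares the cell types and the replicate numbers only name cells. Of 155 values recomputed under the alternatives, 116 kept their direction and side of the threshold, or stayed within their interval or within 1.5 times their count. Some of the 116 could not change. Leaving out a VLMC removes no Mobp transcript, and the pair of exons 3 and 4 could not change its side of the threshold. The share ending in exon 6 (49.4%) was 62.7% with UMIs read 2 or more times, 67.8% with the first exon required, 39.5% with a read in the short run and 74.0% with one in the long run. The annotated end of exon 4 (29.3%) took 1.74% with the first exon required and 13.7% in the long run, and 24.5% to 50% when 1 cell was left out, the highest without Oligo1-1. Exon 3b (12.1%) took 7.46%, 18.3% and 5.48% with UMIs read 2 or more times, the first exon required and the long run, and 3.85% (without Oligo1-1) to 14.0% when 1 cell was left out. By the deposited exon string exon 4 was last in 86.2% in place of 36.8%, since that numbering has no exon 6.

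The 20 end sites became 13 with UMIs read 2 or more times and 13 in the long run, 47 with every position distinct, and 10 (without Oligo1-1) to 20 when 1 cell was left out. The 46 start sites became 22, 6 and 12 with UMIs read 2 or more times, the first exon required and the long run, 71 with every position distinct, 30 when chained within 20 bases, and 25 (without Oligo1-1) to 46 when 1 cell was left out. The 13 combinations became 8 with UMIs read 2 or more times and 8 in the long run, and 7 (without Oligo1-1) to 13 when 1 cell was left out. MOBP81 (80.2%) took 86.7% with UMIs read 2 or more times, 91.7% in the long run, 87.7% with all transcripts assigned by their last exon, and 78.6% to 90.9% (without Oligo1-1) when 1 cell was left out. The 87.7% counts every transcript that ends in exon 4 or 6 as MOBP81. It includes the 49 late starters at the annotated end of exon 4, others without the start codon and the MOBP170 molecule that ends in exon 6. MOBP170 (17.1%) took 8.33% in the long run and 9.09% (without Oligo1-1) to 18.4% when 1 cell was left out. A run of 6 or more A followed 0% of the ends in place of 3.60%.

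When transcripts without the first exon were let in, those with neither exon 2 nor exon 3 went from 1 to 59, most of which start beyond both exons and could not hold them. The log2 odds ratio of exons 2 and 3 then went from 4.56 to 9.89 and that of exon 2 with last exon 3b turned from -1.70 to 2.42, both set by where these molecules start, so they say nothing of a choice of exons. Across the other settings the adjusted p of these pairs stayed above 0.05. None of the 3 genes most like Mobp had the highest Spearman correlation, which was 1.00 for 2 genes, against 0.94 for each of them. UMIs 1 substitution apart, when merged, left 108 transcripts with 54.6% in exon 6 and 2.78% ending earlier in exon 4 in place of 7.47%, a share that was 1.92% without Oligo1-1. The merging linked UMIs of a cell through each other without regard to position. It thus also joined molecules with different ends, and the fall to 108 is not a measure of UMI errors. UMIs that differed by a shift of 1 base were not looked for. The share in the unannotated exon was 0% with UMIs read 2 or more times and in the long run. Most cells have few Mobp molecules, so shares per cell are wide.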
